A study of Homo sapiens with 42 samples.

Results

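The genes described here are 31 genes of cholesterol synthesis, uptake and efflux, chosen by name from the 57353 gene names of the count table. They comprise 7 genes of the mevalonate steps, 12 of the sterol branch, the prenyl branch gene GGPS1, the sterol carrier STARD4, 5 genes that control the SREBP transcription factors, and 5 efflux and LXR genes. Of the 31 genes, 29 passed the filter on low counts (a mean of at least 1 CPM, that is counts scaled to a common library total), and CYP51A1 and ABCG1 did not. For the comparison of both sides of the pathway, the synthesis group holds the mevalonate and sterol branch genes with GGPS1 and STARD4 (20 tested), and the efflux group holds ABCA1, MYLIP and NR1H3, with ABCG1 listed but untested.

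Cells make cholesterol from acetyl-CoA by way of mevalonate, farnesyl diphosphate, squalene and lanosterol. When sterols in the endoplasmic reticulum are low, SCAP carries the precursor of SREBP2 (gene SREBF2) to the Golgi, where it is cut into a transcription factor that raises most genes of the route, and when sterols are high the INSIG proteins hold SCAP back. The nuclear receptors LXR alpha and LXR beta (NR1H3 and NR1H2) sense oxysterols and raise the opposite arm, which includes the export pumps ABCA1 and ABCG1 and MYLIP, a ubiquitin ligase that marks lipoprotein receptors for degradation. Proliferating leukemia cells need sterols for membranes and prenyl groups for the anchoring of small GTPases, and the route is a known downstream branch of growth factor and mTORC1 signaling.

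The RNA came from 21 cultures of the AML line MOLM-13, whose genotype is labelled wild type and whose receptor kinase FLT3 is activated by an internal tandem duplication (FLT3-ITD). Cultures were kept for 12 hours in RPMI with serum or in hBMSC-CM, which is RPMI mixed with medium taken from HS-5, a line of human marrow stroma, so the leukemia cells shared no dish with stromal cells. The FLT3 inhibitor quizartinib (AC220) was given at 3 nM and the mTORC1 inhibitor everolimus at 10 nM, and combo is both drugs at these doses. Both media had vehicle, quizartinib and combo cultures, hBMSC-CM also had cultures with everolimus alone, and each of these 7 conditions had 3 cultures. Everolimus by itself in RPMI is not analysed here. Each culture gave an input library (RNA of the whole lysate) and a library of the heavy polysome fraction, the messages that carry many ribosomes, which made 14 groups of 3 libraries. All results come from this cell line at a single dose and time, and in bulk RNA fewer cells that express a gene and less RNA per cell cannot be told apart.

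Total counts were 19.4 to 38.8 M per library. The myeloid markers SPI1 (at least 265 CPM) and CEBPA (at least 510 CPM) were high in all 42 libraries. The other myeloid markers had lower minima, namely CD33 50.1, MPO 28.6, FLT3 21.8, CSF1R 10.1 and PTPRC 7.48 CPM. CSF1R ranged up to 591 CPM. Lymphoid and erythroid markers were at or near 0. Of 10 stromal markers, COL3A1 and LUM were at 0 in all 42 libraries, while the stromal markers summed to 0.909 to 4.83 CPM in RPMI vehicle input, 9.69 to 41.7 CPM in RPMI quizartinib input and 5.59 to 28.1 CPM in hBMSC-CM combo input, mostly from COL1A1. The rise in RPMI goes with quizartinib, while hBMSC-CM combo differs from RPMI vehicle in medium and in both drugs. The part of the stromal markers in the results below was not tested.

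The everolimus libraries stand apart. The spread between replicates, as a chi-square per gene for which 1 is sampling noise, was 5.02 to 20.7 between everolimus libraries and 34.5 to 403 between the libraries of every other group. In the other groups, libraries of the same replicate number deviated from their group means together, while the everolimus libraries did not share the deviations of their numbers. The drug and the handling of these cultures therefore cannot be told apart, and results that rest on them are given also with the 3 libraries of a fraction summed to 1 sample, an alternative chosen after seeing the data.

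Promoter sequences were read from RefSeq for the 27 of 31 genes that had an entry (250 bases before the start to 50 after it, GRCh38.p14). Sites were searched on both strands for the sterol response element TCACNCCAC, the NF-Y box CCAAT, the Sp1 box GGGCGG, and AGGTCA repeated after 4 bases, a form of the LXR element. An NF-Y box was present in a promoter of 15 of 18 synthesis genes (83.3%), against 39.7% of the 27305 genes with a promoter, and 11 of the 18 genes (61.1%) held 2 or more boxes, against 12.9%. The sterol response element was found in SREBF2 alone of the 27 genes, and in 1.13% of 35116 single promoters. The LXR repeat was found in none of the 27 genes, and in 7 of the 35116 promoters (0.0199%). Only exact matches to these letters were counted, so variant forms of a site were not searched for. Matches that overlap on opposite strands, as in CCAATTGG, counted as separate boxes. The exact LXR repeat is so rare that its absence here does not show that these genes lack an LXR element. Sp1 boxes were present in 25 of the 27 genes, and in 45.0% of single promoters. For the sterol response element, LXR repeat and Sp1 box, the background share is per promoter, while a gene counts with a match in any of its promoters. These shares are therefore not alike. These shares describe letters in a window, and base composition was not accounted for.

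The promoters below belong to genes whose levels the results turn on, and were picked to show those with several NF-Y boxes, the one with a sterol response element, and one with neither. They are MVK (chr12:109573544-109573843, plus strand), MSMO1 (chr4:165327419-165327718, plus), NSDHL (chrX:152830813-152831112, plus), DHCR7 (chr11:71448344-71448643, minus), SREBF2 (chr22:41832855-41833154, plus) and ABCA1 (chr9:104928106-104928405, minus), each written 5′ to 3′ along its gene. Capitals mark NF-Y boxes (CCAAT, or ATTGG where the box lies on the other strand) and, in SREBF2, also the sterol response element.
MVK: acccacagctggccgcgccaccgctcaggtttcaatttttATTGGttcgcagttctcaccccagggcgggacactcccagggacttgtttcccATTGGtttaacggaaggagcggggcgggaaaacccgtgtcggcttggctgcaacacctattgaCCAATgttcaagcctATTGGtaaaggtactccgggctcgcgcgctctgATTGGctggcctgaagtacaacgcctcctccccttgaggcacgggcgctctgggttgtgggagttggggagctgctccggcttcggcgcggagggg
MSMO1: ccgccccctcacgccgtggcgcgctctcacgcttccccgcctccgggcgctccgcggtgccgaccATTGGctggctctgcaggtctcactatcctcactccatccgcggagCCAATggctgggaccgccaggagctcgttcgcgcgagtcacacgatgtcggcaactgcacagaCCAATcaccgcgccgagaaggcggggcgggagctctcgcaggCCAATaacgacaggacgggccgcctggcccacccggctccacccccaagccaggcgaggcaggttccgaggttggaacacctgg
NSDHL: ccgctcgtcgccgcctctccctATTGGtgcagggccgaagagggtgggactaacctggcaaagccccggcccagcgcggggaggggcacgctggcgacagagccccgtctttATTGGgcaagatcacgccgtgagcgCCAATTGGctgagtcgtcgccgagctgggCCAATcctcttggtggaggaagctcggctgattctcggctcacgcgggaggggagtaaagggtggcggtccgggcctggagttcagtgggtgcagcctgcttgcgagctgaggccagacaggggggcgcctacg
DHCR7: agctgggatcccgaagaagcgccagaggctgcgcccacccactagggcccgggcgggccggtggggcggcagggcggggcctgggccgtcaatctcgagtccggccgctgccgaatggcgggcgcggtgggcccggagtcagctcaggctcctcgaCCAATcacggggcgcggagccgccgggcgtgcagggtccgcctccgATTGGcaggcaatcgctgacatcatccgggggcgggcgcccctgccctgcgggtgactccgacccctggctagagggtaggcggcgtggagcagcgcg
SREBF2: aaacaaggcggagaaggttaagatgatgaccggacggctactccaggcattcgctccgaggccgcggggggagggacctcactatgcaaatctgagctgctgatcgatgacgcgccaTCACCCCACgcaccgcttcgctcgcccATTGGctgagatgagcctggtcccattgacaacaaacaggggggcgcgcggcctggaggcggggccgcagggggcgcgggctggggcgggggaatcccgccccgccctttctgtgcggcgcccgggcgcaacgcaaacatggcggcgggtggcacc
ABCA1: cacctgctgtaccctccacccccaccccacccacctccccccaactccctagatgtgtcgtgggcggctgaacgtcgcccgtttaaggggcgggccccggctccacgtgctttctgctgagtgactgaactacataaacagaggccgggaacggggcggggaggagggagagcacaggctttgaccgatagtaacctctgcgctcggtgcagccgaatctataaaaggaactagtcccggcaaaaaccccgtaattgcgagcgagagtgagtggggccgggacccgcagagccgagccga
MVK and NSDHL held 5 NF-Y boxes each, MSMO1 held 4 and the DHCR7 promoter shown held 2, all upstream of the start. In NSDHL, the boxes at 113 and 110 bases before the start overlap on opposite strands as CCAATTGG and were counted separately. Another DHCR7 promoter (chr11:71448994-71449293, minus strand), not shown, held no NF-Y box. SREBF2 held its sterol response element 133 bases and its NF-Y box 106 bases before the start, and ABCA1 held neither.

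Per kilobase of the canonical mRNA, the level in RPMI vehicle input ran from 140 CPM per kilobase for FDPS (farnesyl diphosphate synthase) to 0.108 for ABCA1, with NR1H3 at 0.81. FDPS stood apart from the next genes ACAT2 (56.6 ± 3.03, SD, n = 3), PMVK (52.8 ± 8.47) and FDFT1 (52.6 ± 10.7), which did not differ from each other beyond their spread. DHCR7 (10.7 ± 1.35), SQLE (10.0 ± 1.89) and SREBF1 (8.88 ± 1.96) were likewise level with their neighbors. The synthesis genes SC5D (1.91 ± 0.245) and STARD4 (1.81 ± 0.583) and the LXR gene NR1H2 (24.2 ± 3.92) show that the 2 sides of the pathway overlap in level. FDPS has 8 annotated pseudogenes and IDI1 has 3, so their levels could include or lose reads from near copies.

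Across the 7 conditions, both sides of the pathway moved in opposite directions under quizartinib. The median log2 difference from the RPMI vehicle mean over the 20 synthesis genes was -0.75 ± 0.04 (SD over 3 cultures) in RPMI quizartinib and -0.81 ± 0.09 in RPMI combo, while the median over the 3 efflux genes was 1.58 ± 0.13 and 1.57 ± 0.18. In hBMSC-CM the synthesis median was 0.39 ± 0.19 with vehicle, -0.08 ± 0.28 with quizartinib (0.03 when scaled per library total), -0.53 ± 0.07 with everolimus and -0.72 ± 0.26 with combo. The efflux median in hBMSC-CM was 0.83 ± 0.44 with vehicle, 1.54 ± 0.17 with quizartinib, 0.83 ± 0.12 with everolimus and 1.6 ± 0.16 with combo. The synthesis medians of the 3 hBMSC-CM quizartinib cultures (-0.36 to 0.2) all lay above those of the 3 RPMI quizartinib cultures (-0.78 to -0.7), whereas the efflux medians of the same cultures overlapped.

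**Figure D1:**
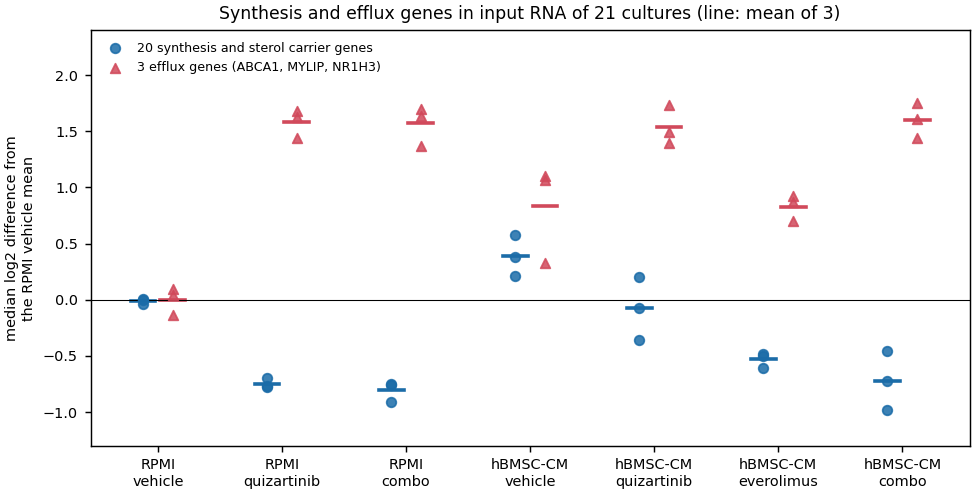
Median log2 difference from the RPMI vehicle mean over 20 synthesis genes (blue circles) and 3 efflux genes (red triangles) in input RNA, with a point per culture and a line at the mean of 3 cultures, for the 7 conditions on the x axis. Synthesis points lie between -0.78 and -0.7 in RPMI quizartinib and between -0.36 and 0.2 in hBMSC-CM quizartinib, and efflux points lie between 1.4 and 1.73 in the latter.

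The first comparison asks what FLT3 inhibition did to these genes in plain medium. Of the 29 genes, 14 were called at an edgeR adjusted p under 0.05 (48.3%), against 34.6% of all 12939 genes tested in this comparison. Of these, 10 were lower, all of them synthesis genes (18% of all genes were lower), and 4 were higher (16.6% of all genes). The median over the 20 synthesis genes was -0.7 on the log2 scale and over the 3 efflux genes 1.46, beside 0.08 over all genes.

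Among the mevalonate steps, 5 of 7 genes fell, and MVD and IDI1 were not called. ACAT2, which joins acetyl-CoA units, measured 80.8, 88.5 and 89 CPM in the vehicle cultures and 42.5, 39.1 and 38.6 CPM under quizartinib. The groups did not overlap, and the log2 change was -1.1 ± 0.16 (SE, adjusted p = 9.23e-07). HMGCS1, which makes HMG-CoA, measured 34.5, 36 and 31.9 CPM with vehicle against 16.4, 20.4 and 19.9 CPM under quizartinib (log2 change -0.85 ± 0.27, adjusted p = 0.0117). FDPS, MVK and PMVK fell by 0.98, 0.89 and 0.89 on the log2 scale. Annotated exons of ACAT2 and HMGCS1 share 22.2% and 37.7% of their bases with genes on the other strand, and the sources do not say whether reads were counted by strand.

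In the sterol branch, 5 of 11 tested genes fell and 1 rose. DHCR7, the 7-dehydrocholesterol reductase that completes cholesterol, changed most, from 31.9, 27.7 and 24.9 CPM with vehicle to 6.1, 6.15 and 2.23 CPM under quizartinib. Every quizartinib culture lay far under every vehicle culture, and the log2 change was -2.54 ± 0.37 (adjusted p = 1.36e-06), a 5.83-fold fall. SQLE, squalene epoxidase, fell from 33, 32.8 and 23.2 CPM to 11.7, 17.4 and 11 CPM (log2 change -1.15 ± 0.28, adjusted p = 0.00151). MSMO1 and NSDHL, which work together in removing the methyl groups at carbon 4 of the sterol ring, fell by 0.97 and 0.92, and LBR, the lamin B receptor that also is a sterol C14 reductase, fell by 0.91. TM7SF2, the other C14 reductase, moved the opposite way, from 5.49, 6.56 and 8.64 CPM to 12.3, 13.2 and 21.8 CPM (log2 change 1.2 ± 0.33, adjusted p = 0.00408). LSS, HSD17B7, EBP and SC5D were not called, with changes from -0.55 to 0.15. For FDFT1 (-0.46, adjusted p = 0.137) and the mevalonate gene IDI1 (-0.49, adjusted p = 0.0977) the call depended on the setting. Blocking on the replicate number gave adjusted p of 0.0326 and 0.0177, and both genes were also called with only the groups compared.

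None of the 5 SREBP control genes was called. SREBF2, SCAP, SREBF1 and INSIG2 had changes between 0.02 and 0.25 with SE from 0.21 to 0.38. INSIG1, a feedback gene that SREBPs themselves raise, measured 19.1, 13.7 and 18.2 CPM with vehicle and 8.81, 8.57 and 8.67 CPM under quizartinib. Its groups did not overlap, and its log2 change of -0.97 ± 0.39 had an adjusted p of 0.055, which the block by replicate number took to 0.0229, and it was called in 6 of 16 alternatives, 4 of them with no block.

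On the efflux side, 3 of 3 tested genes rose. ABCA1, the pump that loads cholesterol onto apolipoproteins, was close to silent with vehicle at 0.882, 1.63 and 0.843 CPM (25 to 57 counts a library) and measured 5.01, 8.3 and 3.61 CPM under quizartinib, a log2 change of 2.33 ± 0.43 (adjusted p = 5.51e-05). MYLIP rose from 26.7, 22.1 and 24.3 CPM to 66, 78.1 and 56.3 CPM (log2 change 1.46 ± 0.17, adjusted p = 2.77e-08). NR1H3 (LXR alpha), itself under LXR control in human macrophages, rose from 1.61, 1.55 and 1.35 CPM to 1.94, 3.91 and 4.75 CPM (log2 change 1.23 ± 0.34, adjusted p = 0.00414), whereas NR1H2 (LXR beta) changed by 0.37 ± 0.45. All 14 calls of this comparison held in each of the 16 alternatives in which the gene was tested (15 for NR1H3, which a stricter filter on low counts left out).

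**Figure D2:**
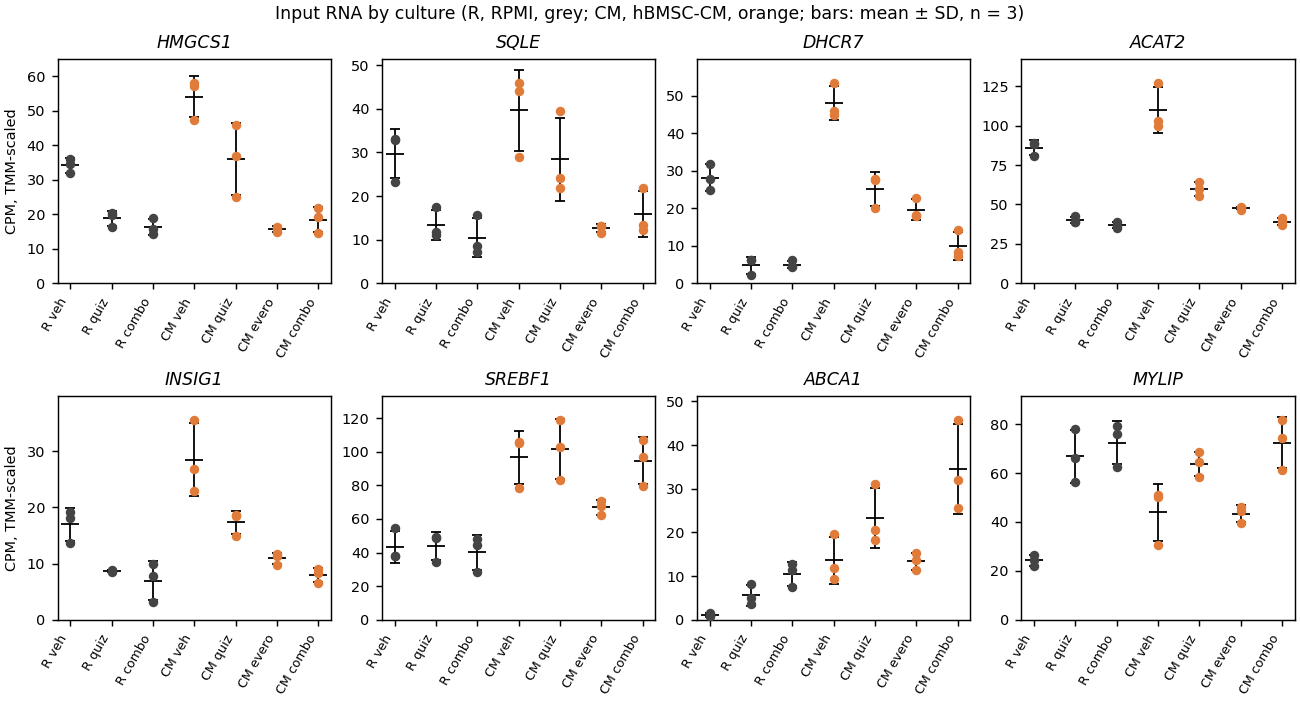
TMM-scaled CPM of 8 genes in input RNA by culture, with RPMI (R) in grey and hBMSC-CM (CM) in orange, and bars for the mean ± SD of 3 cultures. DHCR7 stands at 2.23 to 6.15 CPM in RPMI quizartinib and at 20 to 27.8 CPM in hBMSC-CM quizartinib, and ABCA1 is lowest in RPMI vehicle (0.843 to 1.63 CPM) and highest in hBMSC-CM combo (25.7 to 45.8 CPM).

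Neighboring lists of the pathway, chosen by function, moved less uniformly. Of 8 other SREBP targets, 4 fell and 1 rose, among them the fatty acid elongase ELOVL6 (-2.3 ± 0.26) and desaturase FADS1 (-1.86 ± 0.33), and the acetyl-CoA synthetase ACSS2 (1.48 ± 0.25) rose. Of 11 tested genes of sterol transport and esterification, 3 rose, namely NPC1 (1.3 ± 0.25) and NPC2 (0.71 ± 0.28), which carry cholesterol out of lysosomes, and VLDLR (0.61 ± 0.21).

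Adding everolimus to quizartinib in RPMI called none of the 29 genes by edgeR (1 of 12939 genes, 0.00773%, was called), and none was called by limma voom or DESeq2. At an unadjusted p under 0.05 there were 2, NSDHL and ABCA1, with log2 changes of -0.39 ± 0.17 and 0.9 ± 0.4. Synthesis genes had a median change of -0.1 and a range from -0.44 to 0.08.

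The next comparison gives the quizartinib effect in stromal medium. Of the 29 genes, 5 were called (17.2%), against 12.3% of all genes, with 4 lower (6.84% of all genes) and 1 higher (5.46%). All 4 that fell were mevalonate genes: ACAT2 from 100, 103 and 127 CPM to 55.5, 60 and 64.5 CPM (log2 change -0.88 ± 0.16, adjusted p = 0.000334), MVK (-0.8 ± 0.24), PMVK (-0.65 ± 0.18) and FDPS (-0.61 ± 0.18). None of 11 tested sterol branch genes was called by edgeR (2 at an unadjusted p under 0.05). MYLIP rose from 51, 50.3 and 30.5 CPM to 64.4, 68.4 and 58.3 CPM (log2 change 0.54 ± 0.17, adjusted p = 0.0317). Of 8 other SREBP targets, FADS1 (-1.13 ± 0.33) and ELOVL6 (-0.9 ± 0.24) fell and ACSS2 (0.84 ± 0.25) rose.

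These calls depended on single cultures. Leaving out hBMSC-CM vehicle replicate 3 gave 1 and leaving out hBMSC-CM quizartinib replicate 1 or 2 gave 2, with ACAT2 called in each of the 16 alternatives. Blocking on the replicate number gave 8, the 3 additions being DHCR7 (-0.9, adjusted p = 0.029), NSDHL (-0.43, adjusted p = 0.0484) and NR1H3 (0.89, adjusted p = 0.0308), and with the block within each fraction it was 13. Over all 12939 genes, edgeR calls rose too, from 1591 to 2678 and 3803 with these blocks. DHCR7 itself went from 53.4, 46 and 45 CPM with vehicle to 20, 27.8 and 27.6 CPM, with no overlap and a log2 change of -0.94 ± 0.35 (adjusted p = 0.0726 in the fit with no block), and it was also called with no block by limma voom, with no filter on low counts and with only the groups compared. MSMO1 measured 21.7, 21.3 and 22.4 CPM with vehicle and 16.5, 20.8 and 29 CPM with quizartinib, a change of 0.02 ± 0.22.

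Whether the quizartinib effect differed between media was tested as an interaction. Only MYLIP of the 29 genes was called (1.96% of all genes were, 1.79% with a higher and 0.178% with a lower effect in hBMSC-CM), with an effect that was 0.92 ± 0.24 smaller on the log2 scale in hBMSC-CM than in RPMI (adjusted p = 0.0308). Its level under quizartinib was alike in both media (66.8 ± 10.9 and 63.7 ± 5.08 CPM, SD, n = 3), and its vehicle level was not (24.4 ± 2.28 and 43.9 ± 11.7 CPM). MYLIP lost its call in 10 of 22 alternatives, among them library size only, no filter, only the groups compared and 7 of the fits that left out a culture. Over the 20 synthesis genes the median difference was 0.14, with 11 above 0 and 9 below, from -0.93 to 1.61, and none was called by edgeR. For DHCR7 the fall was 1.61 ± 0.5 smaller in hBMSC-CM, which missed the threshold (adjusted p = 0.099) but passed it in 5 of 22 alternatives, namely both blocks by replicate number (1.69, adjusted p = 0.0164 across fractions), DESeq2, no filter on low counts and only the groups compared. ABCA1 (-1.55 ± 0.57, adjusted p = 0.231) and MSMO1 (0.98 ± 0.31, adjusted p = 0.113) passed with the block within each fraction, at adjusted p of 0.024 and 0.0355, and MSMO1 also passed without hBMSC-CM quizartinib replicate 1.

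**Figure D3:**
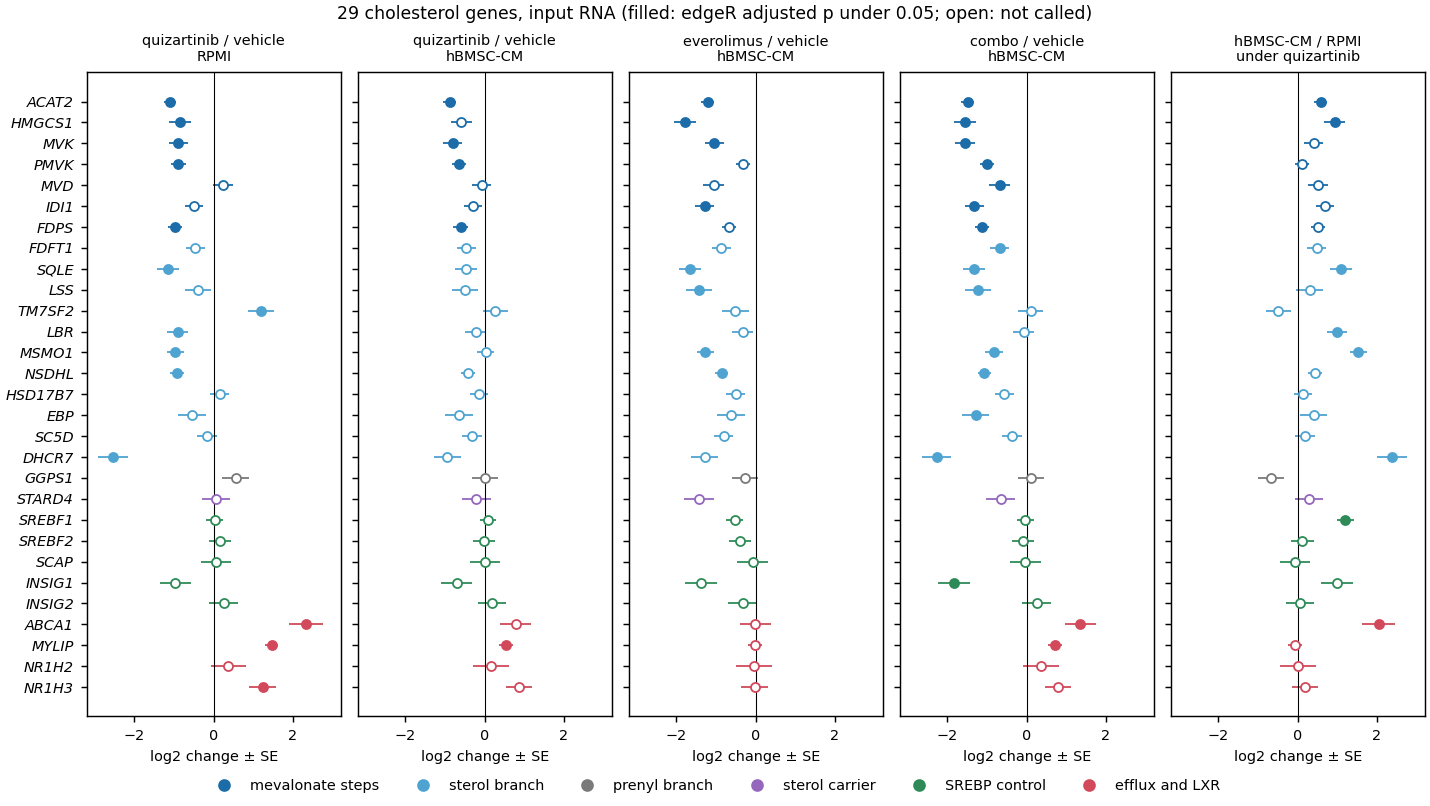
Log2 change ± SE (x axis) of the 29 tested genes (y axis) in input RNA for 5 comparisons, with filled points for an edgeR adjusted p under 0.05 and colors for roles. DHCR7 lies at -2.54 under quizartinib in RPMI and at -0.94 in hBMSC-CM, and all 20 synthesis points are below 0 under everolimus, 8 of them filled.

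Stromal medium alone, without drug, changed 3 of the 29 genes (10.3%), against 1.51% of all genes, and all 3 were higher (1.3% of all genes were). ABCA1 went from 0.882, 1.63 and 0.843 CPM in RPMI to 11.8, 19.6 and 9.35 CPM in hBMSC-CM, a 12.1-fold rise (log2 change 3.59 ± 0.45, adjusted p = 2.12e-06). MYLIP rose from 26.7, 22.1 and 24.3 CPM to 51, 50.3 and 30.5 CPM (0.85 ± 0.17, adjusted p = 0.00269). SREBF1, which encodes SREBP1 and is a known LXR target, rose from 37.8, 38 and 54.6 CPM to 78.6, 105 and 106 CPM (1.15 ± 0.21, adjusted p = 0.000902). None of the 20 synthesis genes was called by edgeR (6 at an unadjusted p under 0.05, and at most 1 was called in any alternative), although their median change was 0.43 beside -0.01 over all genes. MYLIP lost its call with no filter and with only the groups compared.

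Under quizartinib, hBMSC-CM against RPMI called 8 of the 29 genes (27.6%), all higher, against 8.16% of all genes called, 6.11% higher and 2.05% lower. Of these 8, 6 were synthesis genes. DHCR7 was highest in change, at 6.1, 6.15 and 2.23 CPM in RPMI and 20, 27.8 and 27.6 CPM in hBMSC-CM (log2 change 2.38 ± 0.37, adjusted p = 2.01e-05). MSMO1 measured 8.01, 6.51 and 8.45 CPM in RPMI and 16.5, 20.8 and 29 CPM in hBMSC-CM (1.53 ± 0.22, adjusted p = 8.47e-06). SQLE (1.09 ± 0.28), LBR (0.99 ± 0.26), HMGCS1 (0.93 ± 0.27) and ACAT2 (0.58 ± 0.16) were higher too, and their groups did not overlap. ABCA1 (2.04 ± 0.41, adjusted p = 0.000595) and SREBF1 (1.2 ± 0.21, adjusted p = 9.49e-05) completed the list, while MYLIP differed by -0.07 ± 0.17.

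The count ran from 5 (without hBMSC-CM quizartinib replicate 2) to 9 when a culture was left out, was 10 when blocked by replicate number and 14 with the block within each fraction. Calls over all 12939 genes rose with these blocks too, from 1056 to 1541 and 2275. Under the first block FDPS (0.51, adjusted p = 0.0125) and IDI1 (0.68, adjusted p = 0.00766) were added. Of 8 other SREBP targets, 3 were higher in hBMSC-CM under quizartinib, namely ELOVL6 (1.75 ± 0.25), FADS2 (1.28 ± 0.4) and FADS1 (1.13 ± 0.33). Quizartinib cultures of both media enter here, so these values are not independent of the comparisons with vehicle above.

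Under combo, hBMSC-CM against RPMI called 3 of the 29 genes (5.36% of all genes were called), all higher (4.11%). They were ABCA1 at 12.7, 11.4 and 7.47 CPM in RPMI and 32.1, 45.8 and 25.7 CPM in hBMSC-CM (log2 change 1.72 ± 0.4, adjusted p = 0.00451), SREBF1 (1.23 ± 0.21, adjusted p = 9.24e-05) and LBR (1.07 ± 0.26, adjusted p = 0.00748). SREBF1 was thus called higher in hBMSC-CM with vehicle, quizartinib and combo, with log2 changes of 1.15, 1.2 and 1.23. The other synthesis genes lay between -0.53 and 1.0, and DHCR7 (1.0 ± 0.36, adjusted p = 0.121) passed when blocked by replicate number (1.02, adjusted p = 0.0336) and with no filter on low counts. Without RPMI combo replicate 3 the call of ABCA1 was lost and 2 genes remained called, and with the block within each fraction the count was 6. That block also raised the calls over all 12939 genes, from 693 to 1372.

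Everolimus alone in hBMSC-CM called 8 of the 29 genes (27.6%), all lower, against 0.41% of all genes called and 0.185% called lower. All 8 were synthesis genes, 4 mevalonate steps (ACAT2, HMGCS1, MVK and IDI1) and 4 of the sterol branch (SQLE, LSS, MSMO1 and NSDHL), and each of the 20 synthesis genes had a change below 0. HMGCS1 went from 47.2, 57.1 and 58 CPM to 16.1, 16.4 and 14.8 CPM (log2 change -1.78 ± 0.27, adjusted p = 0.000407). SQLE went from 44.1, 45.9 and 28.9 CPM to 13.2, 13.1 and 11.6 CPM (-1.65 ± 0.28, adjusted p = 0.00221), LSS, the lanosterol synthase, changed by -1.43 ± 0.33, and IDI1, MSMO1 and ACAT2 by -1.28 ± 0.24, -1.27 ± 0.22 and -1.21 ± 0.16. The groups of these genes did not overlap, though the everolimus libraries lie unusually close together. The synthesis median was -0.95 beside -0.02 over all genes.

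The efflux genes had changes near 0. ABCA1 measured 11.8, 19.6 and 9.35 CPM with vehicle and 13.6, 15.2 and 11.4 CPM with everolimus (-0.01 ± 0.39), MYLIP changed by -0.02 ± 0.17 and NR1H3 by -0.03 ± 0.33. Of 8 other SREBP targets 2 were called, FADS2 (-1.99 ± 0.4) and FADS1 (-1.37 ± 0.33), both lower, and none of 11 genes of sterol transport and esterification was called by edgeR (1 at an unadjusted p under 0.05).

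The everolimus calls depend on counting its 3 close libraries as separate samples. With them summed to 1 sample, none of the 29 genes was called by edgeR, while the sizes stayed near the values above (HMGCS1 -1.73, adjusted p = 0.848, SQLE -1.6, adjusted p = 0.907, and ACAT2 -1.16, adjusted p = 0.277). Leaving out everolimus replicate 1 or 3 gave 3, leaving out everolimus replicate 2 gave 4, and leaving out hBMSC-CM vehicle replicate 3 gave 5, while DESeq2 called 14. DESeq2 called 164 of all genes, against 53 in the main fit.

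Combo against vehicle in hBMSC-CM called 17 of the 29 genes (58.6%), with 15 lower and 2 higher, against 26.5% of all genes called, 15.1% lower and 11.4% higher. All 7 mevalonate genes fell, with a median of -1.32, and 7 of 11 tested sterol branch genes fell. DHCR7 went from 53.4, 46 and 45 CPM to 7.35, 14.1 and 8.4 CPM (log2 change -2.27 ± 0.36, adjusted p = 1.39e-05). INSIG1 went from 35.6, 23 and 26.8 CPM to 8.4, 9.07 and 6.59 CPM (-1.83 ± 0.4, adjusted p = 0.000802), the only SREBP control gene called in a drug comparison with no block. MVK (-1.55 ± 0.25), HMGCS1 (-1.55 ± 0.27) and ACAT2 (-1.49 ± 0.16) completed the 5 largest falls, and none of these groups overlapped. TM7SF2 and LBR, the sterol C14 reductases, changed by 0.1 ± 0.32 and -0.08 ± 0.26.

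ABCA1 rose from 11.8, 19.6 and 9.35 CPM to 32.1, 45.8 and 25.7 CPM (1.35 ± 0.39, adjusted p = 0.00963) and MYLIP from 51, 50.3 and 30.5 CPM to 74.4, 81.8 and 61.1 CPM (0.72 ± 0.17, adjusted p = 0.00145). ABCA1 lost its call without hBMSC-CM combo replicate 2 or without hBMSC-CM vehicle replicate 3, and MVD (-0.68 ± 0.26, adjusted p = 0.0454), whose groups overlapped, lost it in 11 of 16 alternatives. EBP lost its call without hBMSC-CM vehicle replicate 3, which measured 83.5 CPM against 31.7 and 40.5 CPM in the other vehicle cultures. FDFT1 lost its call in 4 of 16 alternatives, and MSMO1 and MYLIP in 1 each. NR1H3 (0.81, adjusted p = 0.0307) and HSD17B7 (-0.57, adjusted p = 0.0271) were added when the fit was blocked by replicate number. Of the neighboring lists, FADS2 (-1.92 ± 0.4), FADS1 (-1.54 ± 0.33) and ELOVL6 (-1.48 ± 0.25) fell, and ACSS2 (1.09 ± 0.25) and NPC1 (0.79 ± 0.24) rose.

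Set against quizartinib alone in hBMSC-CM, combo called 1 of the 29 genes (0.24% of all genes were called, all lower). IDI1, the isomerase of isopentenyl diphosphate, went from 31.6, 47.8 and 52.8 CPM to 19.6, 24.4 and 21.2 CPM (-1.02 ± 0.23, adjusted p = 0.0479), a call lost in 12 of 16 alternatives. Of the 20 synthesis genes 18 had a change below 0, with a median of -0.61 beside 0 over all genes. Blocking on the replicate number gave 6, with ACAT2 (-0.61, adjusted p = 0.0304), DHCR7 (-1.35, adjusted p = 0.0184), MSMO1 (-0.83, adjusted p = 0.0376), NSDHL (-0.64, adjusted p = 0.0299) and SQLE (-0.85, adjusted p = 0.0431) added, and with the block within each fraction it was 11. Calls over all 12939 genes rose with these blocks too, from 31 to 154 and 380. Leaving out hBMSC-CM quizartinib replicate 1 gave 4, and leaving out any other culture of the pair gave 0.

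Set against everolimus alone, combo called 3 of the 29 genes (10.3%), close to the 11.1% of all genes (3.56% higher and 7.54% lower). ABCA1 (1.36 ± 0.39, adjusted p = 0.0197) and MYLIP (0.74 ± 0.17, adjusted p = 0.00286) were higher and PMVK (-0.68 ± 0.18, adjusted p = 0.011) was lower. PMVK measured 38.2, 39.6 and 39.1 CPM with everolimus and 24, 20.4 and 28.3 CPM with combo. With the everolimus libraries summed to 1 sample none of the 3 was called (0 of 29), with only the groups compared 10 of 29 were, and without any single culture of the pair, except hBMSC-CM combo replicate 3, the count was 2. With only the groups compared, 3719 of all 12939 genes were called, against 1437 in the main fit. The comparisons with vehicle, quizartinib and everolimus share the combo libraries, so they do not bear on each other independently.

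Quizartinib in RPMI and everolimus in hBMSC-CM share no library and can be set side by side. Of the 29 genes 16 were below 0 in both, against 4364 of 12939 genes, and the log2 changes correlated across the 29 genes (Pearson r = 0.65, Spearman rho = 0.66) and across all genes (r = 0.5, rho = 0.53), as a description over genes that are not independent. Within the 20 synthesis genes 15 were below 0 in both and r was 0.37. The profiles differed gene by gene: DHCR7 changed by -2.54 and -1.29, HMGCS1 by -0.85 and -1.78, STARD4 by 0.06 and -1.43, and TM7SF2 by 1.2 and -0.51, and the efflux genes ABCA1, MYLIP and NR1H3 by 2.33, 1.46 and 1.23 under quizartinib and by -0.03 to -0.01 under everolimus. Drug, medium and library handling all differ between these comparisons, and their part in the contrast was not tested.

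**Figure D4:**
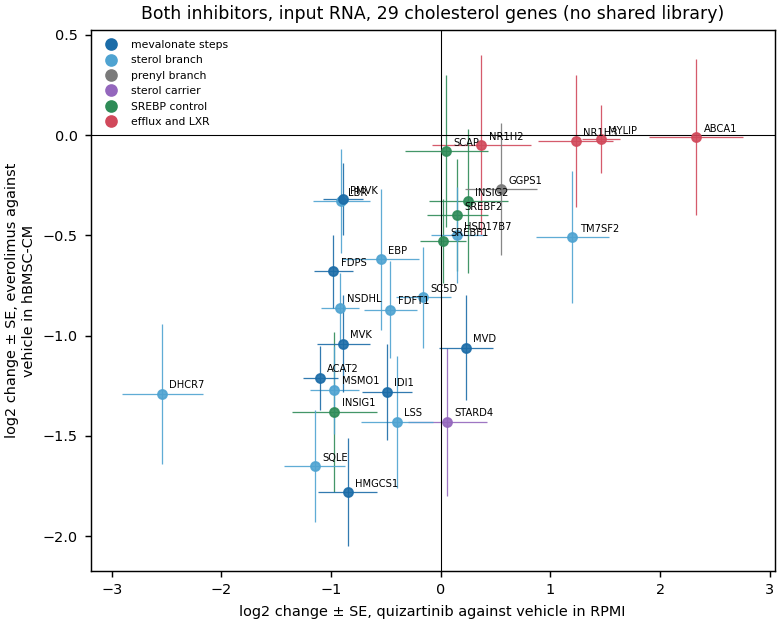
Log2 change ± SE of the 29 tested genes under quizartinib in RPMI (x axis) and everolimus in hBMSC-CM (y axis), in input RNA, colored by role. Synthesis genes gather at the lower left, with HMGCS1 lowest at -1.78 on the y axis, and ABCA1, MYLIP and NR1H3 lie at 1.23 to 2.33 on the x axis and within 0.03 of 0 on the y axis.

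In heavy polysomes of RPMI vehicle cultures, 25 of the 29 genes stood apart from input (86.2%), against 65.4% of all genes, with 16 higher (31.5% of all genes) and 9 lower (33.9%). The higher genes included SCAP (1.94 ± 0.39), DHCR7 (1.88 ± 0.36), MVD (1.81 ± 0.26) and PMVK (1.71 ± 0.19). MVD, which makes isopentenyl diphosphate, measured 25.2, 33.1 and 36.1 CPM in input and 144, 117 and 70.7 CPM in heavy polysomes. The lower genes included GGPS1, the geranylgeranyl diphosphate synthase, at 8.46, 6.76 and 6.58 CPM in input and 1.81, 1.09 and 0.703 CPM in heavy polysomes (-2.6 ± 0.36, adjusted p = 3.2e-07), INSIG2 (-1.99 ± 0.38), ABCA1 (-1.56 ± 0.51), STARD4 (-1.31 ± 0.37), SC5D (-1.24 ± 0.26) and HMGCS1 (-0.96 ± 0.27). ABCA1 lost its call by limma voom and without RPMI vehicle replicate 2, and STARD4 lost it without RPMI vehicle replicate 1, with a change that ran from -1.99 to -0.72 over the cultures left out. Of GGPS1's exon bases 41% are shared with other genes. Without RPMI vehicle replicate 1 the count was 21 and without replicate 2 it was 22, and with scaling by library size only the synthesis median was 0.46 in place of 1.03, so these levels depend on how the fractions are scaled, while none of the named values changed sign.

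Position in heavy polysomes went with base composition. The 16 higher genes had a median GC content of 58.3% (45.5 to 65.5%) and the 9 lower genes of 37.9% (34.4 to 45.4%), and the 4 genes not called lay between (44.8 to 46.9%). Across the 29 genes the correlation of GC content with the log2 difference was r = 0.87 (rho = 0.85), and across 12898 genes with a length it was r = 0.68 (rho = 0.73), a description over points that share the same 6 libraries. The lower genes also had longer messages (median 3748 against 1943 bases). Whether GC content, length or ribosome load sets these values was not tested.

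**Figure D5:**
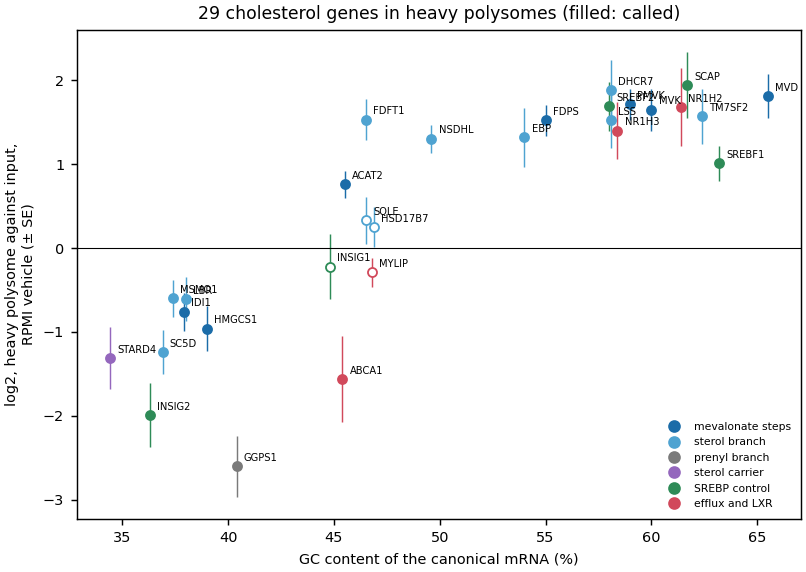
Log2 level in heavy polysomes against input (y axis, ± SE) and GC content of the canonical mRNA in percent (x axis) for the 29 tested genes in RPMI vehicle cultures, with filled points for called genes. Points below 40% GC all lie below 0, and those above 49% all lie above 1.

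Changes in heavy polysomes were then set against those in input. In the 11 comparisons of this kind, edgeR called none of the 29 genes, limma voom and DESeq2 called none, and 0 to 2 genes per comparison had an unadjusted p under 0.05. All genes were called at 1.55% in the quizartinib comparison in RPMI, at 0.0232% for combo against vehicle in hBMSC-CM and at 0 in the other 9. The changes ran from -0.75 (LSS with everolimus, and DHCR7 for the quizartinib effect between media) to 1.28 (GGPS1, quizartinib in hBMSC-CM, ± 0.5), and GGPS1 also had 1.19 ± 0.5 with everolimus and 1.15 ± 0.49 with combo against vehicle, all with an adjusted p of 1. In RPMI, SC5D had the largest relative gain under quizartinib (0.88 ± 0.36, adjusted p = 0.216), which passed only with the block within each fraction (0.92, adjusted p = 0.0308). Within the polysome libraries alone, the synthesis median against the RPMI vehicle mean was -0.56 ± 0.24 in RPMI quizartinib polysomes and -0.05 ± 0.15 in hBMSC-CM quizartinib polysomes (0.18 when scaled per library total), and the efflux median was 1.76 ± 0.02 and 1.39 ± 0.21. With SE of 0.22 to 0.91 for such differences, moderate shifts were not detectable at this depth and replication.

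CYP51A1 and ABCG1 were too low to test. CYP51A1, the lanosterol demethylase, had at most 52 counts in a library (4 of 42 libraries at 0), and 74.1% of its exon bases are shared with other annotated genes, a fact whose part in its low level was not tested. ABCG1 had 26 counts in all, with 38 of 42 libraries at 0. A library at 0 allows at most 0.0773 to 0.154 CPM by its depth (3 counts of its total, counting error only). Of the 26 counts, 15 lay in a single everolimus polysome library, at 0.445 CPM. All 31 genes were found in the table.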

How the data were processed

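RNA of 21 MOLM-13 cultures was sequenced as input and heavy polysome libraries (42 libraries). The authors prepared poly(A)-selected paired-end libraries, trimmed reads with BBDuk, aligned them with STAR 2.6.0a to hg38 with Ensembl release 96 and deposited raw read counts per gene. Whether counting used strand is not stated in the sources used here. Rows that shared a gene name were summed. Total counts were 19.4 to 38.8 M per library (median 30.2 M), which limits the precision for low genes, and floors cover counting error only.

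Genes with a mean of at least 1 count and 1 CPM were kept (12939 of 57353 names). edgeR 4.0.16 (R 4.3.3) was fitted to all 42 libraries with 14 group means, TMM scaling (factors 0.705 to 1.25) and the robust quasi-likelihood test, with Benjamini-Hochberg adjustment over all genes tested and a threshold of 0.05. Polysome comparisons are interactions, the change in polysomes minus that in input. Overlap between groups was read for the listed genes only. The share of all genes without overlap was not computed, so non-overlap is a description. The labels give replicate numbers only. Replicates were taken as separate cultures, since the study calls its replicates biological, and the spread between them may be technical. Whether this holds for the close everolimus libraries was not tested. The p-values rest on a spread estimated over all 42 libraries, both fractions together, and not on the compared cultures alone. The main fit took the input and polysome libraries of a culture as separate samples. With a block per culture, 25 members were called between the fractions of RPMI vehicle, as in the main fit. Same-numbered libraries deviated together in every input comparison without everolimus (correlations 0.29 to 0.658 between groups compared, from the data and not from a label that names a shared day), and not with everolimus (-0.0535 to -0.000365), so the replicate number was tried as a block. The script was tested on simulated data.

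Alternatives were limma voom (limma 3.58.1), DESeq2 1.42.0, other scalings and filters, only the groups compared, the block, and leaving out each culture. Promoters came from RefSeq (GRCh38.p14), and lengths, GC content and overlaps from GENCODE. The genes named are the members called, in order of change, and called genes of the neighboring lists (up to 3 by size, and ACSS2 for combo, added after its value was seen). The lists of SREBP processing and of other LXR targets are not reported here. The members and lists were chosen with earlier results of these data known.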

Additional observations from a re-analysis of the deposited data

Results flagged for a closer look

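The effect of quizartinib on MYLIP differed between media by the interaction test. The log2 effect in hBMSC-CM minus that in RPMI was -0.92 ± 0.24 (edgeR adjusted p = 0.0308), with single effects of 0.54 and 1.46. MYLIP was higher under quizartinib in all 3 same-numbered pairs in each medium. The adjusted p ranged from 0.00201 to 0.437 over 22 alternatives. The stromal marker sum also rose with quizartinib in RPMI, and its part in this difference was not tested.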

How the results depend on the processing

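No log2 change of a called member changed sign in the alternatives run, while medians near 0 did. Counts are members called of 29 in input unless stated. For quizartinib against vehicle in hBMSC-CM (5 called), the count was 2 with no filter, 3 with only the groups compared, 3 with everolimus libraries left out of the fit, 8 with the replicate number as a block and 13 with the block within each fraction. Calls over all 12939 genes rose from 1591 to 2678 and 3803 with these blocks. For everolimus against vehicle (8) it was 14 by DESeq2, 15 and 16 with these blocks, though the numbers do not pair the everolimus libraries, and 0 with the everolimus libraries summed. All genes called for everolimus went from 53 to 164 by DESeq2 and to 244 and 675 with these blocks. For combo against quizartinib in hBMSC-CM (1) it was 0 by limma voom, RLE factors, library size only, a mean of at least 10 CPM, only the groups compared or everolimus left out, 6 by DESeq2, 6 with the block and 11 with the block within each fraction. Here all genes called went from 31 to 102 by DESeq2 and to 154 and 380 with these blocks. For combo against everolimus (3) it was 10 with only the groups compared, 5 and 10 with these blocks and 0 with the libraries summed. All genes called for combo against everolimus went from 1437 to 3719 with only the groups compared, and to 2320 and 3290 with these blocks. Under the block within each fraction, hBMSC-CM against RPMI gave 14 with quizartinib and 6 with combo, and the polysome comparison of quizartinib in RPMI gave 1. In these 3 comparisons all genes called went from 1056 to 2275, from 693 to 1372 and from 201 to 1513. The quizartinib effect between media (1) gave 2 by DESeq2, 0 with library size only, and with the block 2, or 4 within each fraction. All genes called went from 254 to 455 and 876 with these blocks. Per library total, the synthesis level against RPMI vehicle was -0.68 in RPMI quizartinib, -0.72 in RPMI combo and -0.44 in hBMSC-CM everolimus, and in hBMSC-CM quizartinib it turned from -0.08 to 0.03 in input and from -0.05 to 0.18 in polysomes. The efflux median turned from -0.02 to as much as 0.35 for everolimus (without hBMSC-CM vehicle replicate 2) and from 0.19 to -0.08 for hBMSC-CM against RPMI under quizartinib (without RPMI quizartinib replicate 1). Leaving out a culture gave 14 to 15 for quizartinib in RPMI, 1 to 5 in hBMSC-CM, 3 to 9 for everolimus, 14 to 17 for combo against vehicle, 0 to 4 against quizartinib and 2 to 3 against everolimus, 3 to 4, 5 to 9 and 2 to 3 for medium with vehicle, quizartinib and combo, 0 to 2 for the effect between media, 21 to 25 for the fractions, and 0 for the others. The causes were not tested. The block by replicate number across both fractions changed no other call than those given here and in the results, and the settings with everolimus summed or left out were chosen after seeing the data.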
